A study of Mus musculus with 14 samples.

Results

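Arpp21, Endou, Aqp11, Sva, Gfra1, Ccdc18, Edem1 and Syt13 are 8 of the 15803 genes measured on exon arrays in 14 mouse thymic lymphomas, of which 7 belong to the Vav-SB and 7 to the CD4-SB model. They were taken as markers of Vav-SB tumours because earlier results of these arrays had shown them higher there, so the difference between the models is described for them and not tested. Their 112 probe sets, of 179496 in the table that carry 1 gene symbol, are those annotated to one of these genes alone. Endou appears there under its older name Pp11r. A probe set joins a few probes, as a rule from 1 exon, and a gene's level is the mean of its probe sets' values on the log2 scale. Both groups are Sleeping Beauty models of T-cell acute lymphoblastic leukaemia, in which a mobile transposon mutates the genome, and every sample is labelled a thymic lymphoma. As background, the Vav promoter is active across the blood lineages and the Cd4 promoter in the T lineage. The labels used here state neither the constructs and alleles nor strain background, age, sex or treatment. The 7 Vav-SB tumours carry 7 different leading numbers in their titles and the 7 CD4-SB tumours 4. Nothing states that each tumour came from its own animal. The p-values treat the tumours as independent, and a shared origin could make them too small. They speak for these samples only.

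As background, developing T cells pass through a stage with both CD4 and CD8 on the surface, at which the antigen receptor alpha chain is rearranged. Arpp21 is known from that stage, where its long form, also called TARPP, is made in thymocytes before selection. It is an RNA-binding protein with an R3H domain, and its short form in neurons is a phosphoprotein of the cAMP pathway. The other genes have known roles outside the thymus as well. Endou encodes an endoribonuclease that cuts RNA at uridines, Aqp11 an aquaporin of intracellular membranes, and Sva the secreted seminal vesicle autoantigen. Gfra1 encodes the surface coreceptor through which the growth factor GDNF engages the Ret kinase. Edem1 sends misfolded glycoproteins of the endoplasmic reticulum (ER) to disposal, and Syt13 is an atypical synaptotagmin, a family of vesicle proteins. Ccdc18 encodes a coiled-coil protein.

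The sequences that bear on these genes are the microRNA encoded within Arpp21 and 3 promoters. In the RefSeq tables (GRCm38.p6), Mir128-2 lies inside Arpp21 on chromosome 9. The level of the microRNA was not analysed here. Its 3p arm, at chr9:112118644-112118664 on the minus strand, is shown with its seed, bases 2 to 8, in capitals, and the 5p arm follows with its seed in capitals.
mmu-miR-128-3p: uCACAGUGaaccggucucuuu
mmu-miR-128-2-5p: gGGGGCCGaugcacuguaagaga
The 3p sequence is identical to that of Mir128-1 on chromosome 1, so the 2 loci share its seed.

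RefSeq promoter windows, 250 bases before to 50 after a transcript's start, were given for 6 of the 8 genes, 14 windows in all, of which 9 belong to Arpp21 and in part overlap. Both strands were searched for 5 motifs of thymocyte factors. These were CANNTG, the E box; TGTGGT, bound by Runx factors; CTTTGA, bound by Tcf and Lef; AGATAA, bound by Gata; and TGGGAA, bound by Ikaros and Rbpj. The windows below show an Arpp21 start with 4 of the motifs, a promoter with 2 and one with E boxes alone. Capitals mark the matches, which do not overlap in these windows. The Arpp21 window is chr9:112233673-112233972 (minus strand), that of Aqp11 chr7:97738198-97738497 (minus strand) and that of Sva chr6:42038144-42038443 (plus strand).
Arpp21: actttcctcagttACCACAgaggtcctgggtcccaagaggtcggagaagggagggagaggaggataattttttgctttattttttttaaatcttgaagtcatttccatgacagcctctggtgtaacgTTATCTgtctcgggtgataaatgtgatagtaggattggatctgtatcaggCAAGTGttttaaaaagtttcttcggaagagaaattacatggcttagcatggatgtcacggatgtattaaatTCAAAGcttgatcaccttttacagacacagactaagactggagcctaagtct
Aqp11: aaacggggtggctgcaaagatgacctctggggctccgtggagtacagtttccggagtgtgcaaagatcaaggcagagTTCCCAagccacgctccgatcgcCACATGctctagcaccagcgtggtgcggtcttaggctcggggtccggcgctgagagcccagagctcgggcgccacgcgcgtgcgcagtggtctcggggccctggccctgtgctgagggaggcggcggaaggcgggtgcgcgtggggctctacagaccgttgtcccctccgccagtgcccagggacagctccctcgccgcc
Sva: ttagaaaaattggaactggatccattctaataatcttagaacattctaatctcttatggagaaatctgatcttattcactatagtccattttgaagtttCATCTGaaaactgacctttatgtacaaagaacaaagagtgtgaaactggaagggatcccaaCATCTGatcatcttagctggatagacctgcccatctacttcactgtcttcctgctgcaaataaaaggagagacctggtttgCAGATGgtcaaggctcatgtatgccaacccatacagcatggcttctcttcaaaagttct
By gene, an E box was found in windows of 4 of the 6 (Arpp21, Aqp11, Gfra1 and Sva). Runx, Tcf and Lef, and Gata matches were found in windows of Arpp21 alone, and the TGGGAA match in that of Aqp11 alone. The windows of Ccdc18 and Edem1 held none of the 5 motifs. Of 32851 promoter windows of all genes, 72.3% held an E box, 16.8% a Runx, 16.0% a Tcf and Lef, 11.2% a Gata and 25.6% a TGGGAA match. These shares are per window, while Arpp21 has 9 windows and overlapping ones hold the same match, so they are not set against the counts by gene. A match is a run of letters and not a measured binding site.

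All 8 genes were higher in every Vav-SB tumour than in every CD4-SB tumour. Over all genes, 2.51% showed such a separation in this direction. The members were chosen on this contrast, so nothing is read from their count. The levels of different genes rest on different probes and are not compared with one another.

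Arpp21 and Endou stood apart by the widest margins of the 8 genes. Arpp21 had a lowest, median and highest level of 10.07, 10.89 and 11.02 in Vav-SB tumours, against 5.65, 5.83 and 6.11 in CD4-SB tumours. Its means were 10.77 ± 0.32 for Vav-SB and 5.83 ± 0.15 for CD4-SB (SD, n = 7 each), a difference of 4.93 on the log2 scale or 30.5-fold. The lowest Vav-SB tumour lay 3.96 above the highest CD4-SB tumour, and 6 of the 7 Vav-SB tumours lay within 10.71 to 11.02. Endou had levels of 11.07, 11.45 and 11.75 in Vav-SB tumours, against 6.47, 6.55 and 7.20 in CD4-SB tumours, a 28.2-fold difference. The gap between the models was 3.87, and within CD4-SB the tumours other than replicate 7 lay between 6.47 and 6.59.

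Sva, Gfra1 and Ccdc18 were separated by gaps of 2.73, 2.16 and 2.01. Sva had levels of 7.83, 8.13 and 8.54 in Vav-SB tumours, against 4.50, 4.93 and 5.10 in CD4-SB tumours, a 9.89-fold difference. Gfra1 had levels of 9.06, 9.86 and 10.25 in Vav-SB tumours, against 6.55, 6.74 and 6.89 in CD4-SB tumours, an 8.23-fold difference. For Gfra1 the spread was wider in Vav-SB (SD 0.41) than in CD4-SB (SD 0.12), a difference in spread that was not tested. Ccdc18 had levels of 9.04, 9.62 and 9.90 in Vav-SB tumours, against 5.48, 6.59 and 7.03 in CD4-SB tumours, an 8.84-fold difference. The lowest CD4-SB value of Ccdc18, in replicate 3, was the lowest in 20 of its 27 probe sets.

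Aqp11 differed 9.36-fold but came closest to overlap. Its levels were 9.17, 10.62 and 10.99 in Vav-SB tumours, against 5.64, 6.90 and 8.82 in CD4-SB tumours, which left a gap of 0.35. The CD4-SB tumours spread over 3.18 on the log2 scale (SD 1.06), the widest range of any of the 8 genes in either model. Replicates 4 and 3 of CD4-SB, at 8.82 and 8.03, were the highest of that model, and replicate 1, at 5.64, was the lowest. The order held in the single probe sets: replicate 4 was the highest CD4-SB tumour in 6 of 7, and replicate 1 the lowest in 6 of 7. Without CD4-SB replicate 4 the difference was 3.50, and without replicate 1 it was 2.97.

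Edem1 and Syt13 differed least. Edem1 had levels of 10.53, 10.83 and 11.26 in Vav-SB tumours, against 8.77, 9.03 and 9.23 in CD4-SB tumours, a 3.53-fold difference. Syt13 had levels of 8.50, 9.24 and 9.38 in Vav-SB tumours, against 7.09, 7.19 and 7.56 in CD4-SB tumours, a 3.67-fold difference. The gaps were 1.30 for Edem1 and 0.94 for Syt13.

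**Figure D1:**
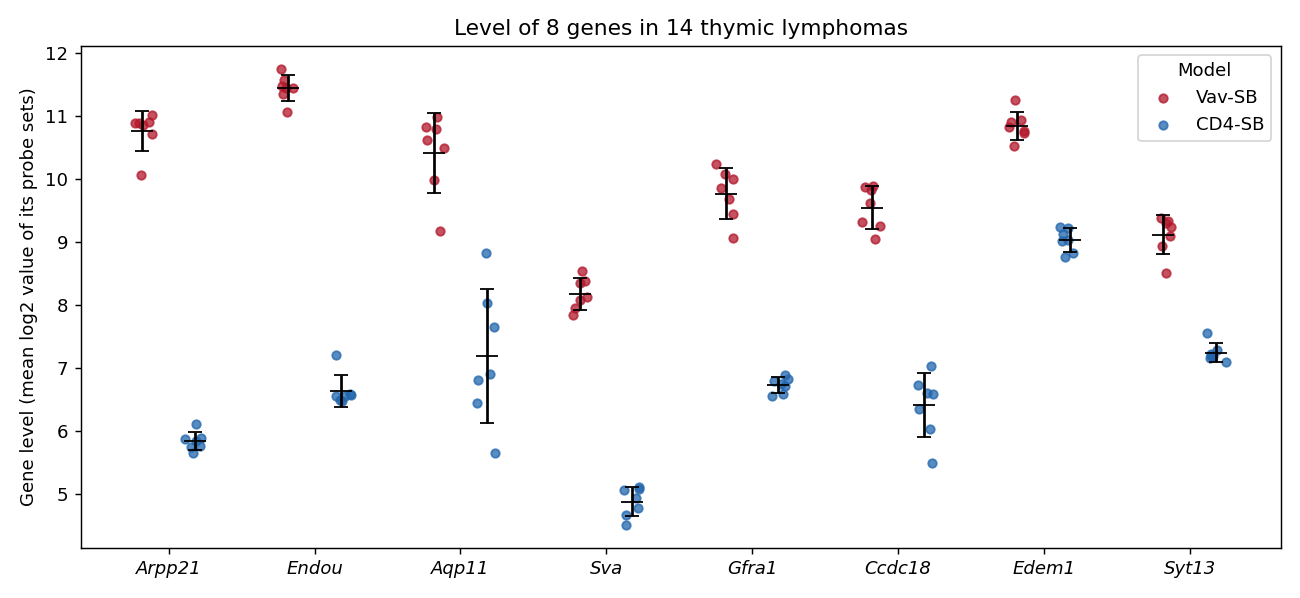
Level of each of the 8 genes (log2 scale, vertical axis) in every tumour, with Vav-SB left of CD4-SB for each gene. Points are tumours and bars the mean ± SD (n = 7 per model). All Vav-SB points lie above all CD4-SB points, by 3.96 for Arpp21 and by 0.35 for Aqp11.

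The separation was carried by most probe sets. Of the 112 probe sets, 112 had the higher mean in Vav-SB, against 51.6% of all probe sets, and 100 had their lowest Vav-SB tumour above their highest CD4-SB tumour, against 1.76% of all. Arpp21 (25 of 25), Endou (9 of 9) and Sva (5 of 5) were separated in each probe set. The counts were 6 of 7 for Aqp11, 24 of 27 for Ccdc18, 15 of 17 for Edem1, 10 of 13 for Gfra1 and 6 of 9 for Syt13. These are the same contrast as the choice of genes, and probe sets of a gene are not replicates.

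Differences varied widely within a gene. In Arpp21 the largest was 8.05 (11.84 in Vav-SB against 3.79 in CD4-SB) and the smallest 2.10 (10.72 against 8.62), with a median of 4.89. Endou was the most even, with 3.34 to 5.59. Gfra1 ran from 0.24 (6.81 in Vav-SB against 6.57 in CD4-SB) to 6.34 (11.54 against 5.20). Syt13 ran from 0.24 (9.39 in Vav-SB against 9.15 in CD4-SB) to 4.73 (12.24 against 7.51), and 3 of its 9 probe sets exceeded 2. Edem1 ran from 0.18 (8.49 in Vav-SB against 8.32 in CD4-SB) to 3.24 (10.06 against 6.82). The positions of probe sets were not used, so which exons these are is not given.

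**Figure D2:**
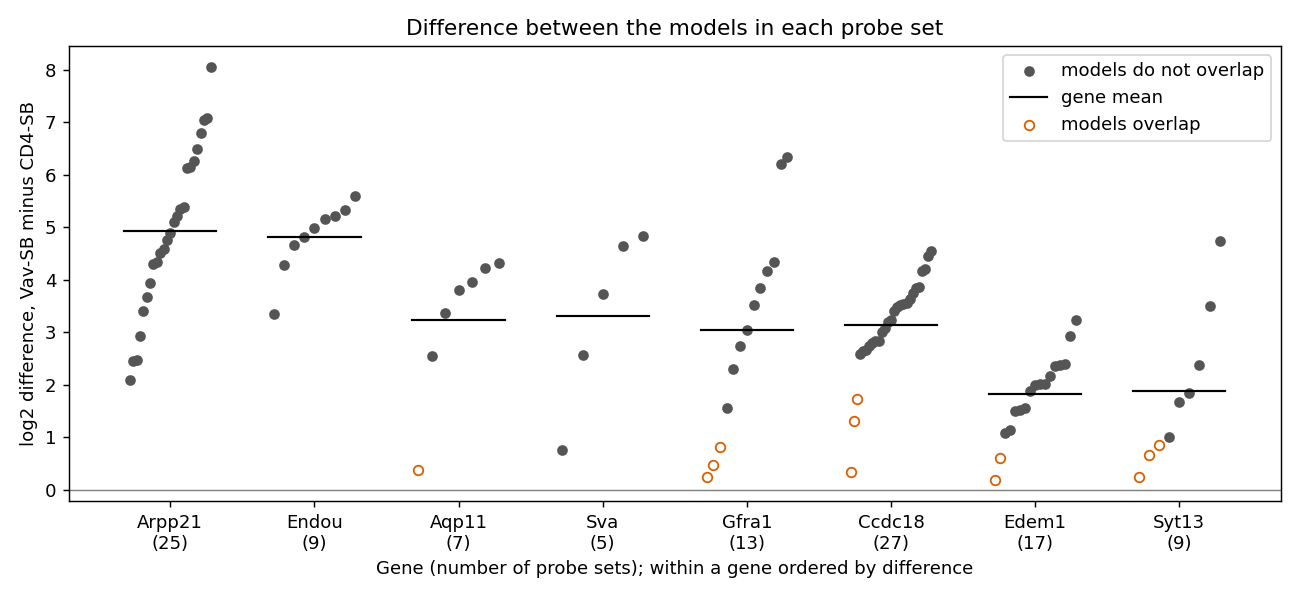
Vav-SB minus CD4-SB difference in mean log2 value (vertical axis) for each probe set of the 8 genes. Points are probe sets, drawn apart by whether the models overlap in them. Arpp21 spans 2.10 to 8.05 and Syt13 0.24 to 4.73, and no probe set lies below 0.

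Within a model the 8 genes did not share one order of tumours. Vav-SB replicate 6 was the lowest of its model for Arpp21, Aqp11, Edem1 and Syt13, and the highest for Gfra1. In the single probe sets it was lowest in 25 of 25 of Arpp21 and in 15 of 17 of Edem1. Vav-SB replicate 5 was highest for Aqp11, Ccdc18 and Edem1. In CD4-SB, replicate 4 was lowest for Sva, Gfra1, Edem1 and Syt13 while it was highest for Aqp11.

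Among the 28 pairs of genes within Vav-SB, 17 correlations were positive, with a median r of 0.15 and a range of -0.72 to 0.86. None passed an exact permutation test adjusted over the 28 pairs (smallest adjusted p = 0.489, two-sided), while 2 had an unadjusted exact permutation p under 0.05. The pair Aqp11 and Edem1 had r = 0.82 (exact permutation p = 0.0294) and rho = 0.857 (exact p = 0.0238), and r = 0.83 without the 2 tumours farthest from the Aqp11 median. Arpp21 and Aqp11 had r = 0.86 (exact permutation p = 0.0349) and rho = 0.607 (exact p = 0.167), but r = 0.23 without the 2 farthest tumours, so this relation rests on those tumours. Gfra1 and Syt13 had r = -0.72 (exact permutation p = 0.0597) and rho = -0.857 (exact p = 0.0238). Within CD4-SB, where tumours share title numbers, 20 of 28 correlations were positive and 0 passed (smallest adjusted exact permutation p = 0.172). Its pair Arpp21 and Gfra1 had r = 0.87 (unadjusted exact permutation p = 0.00615), and r = 0.80 without the 2 farthest tumours.

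**Figure D3:**
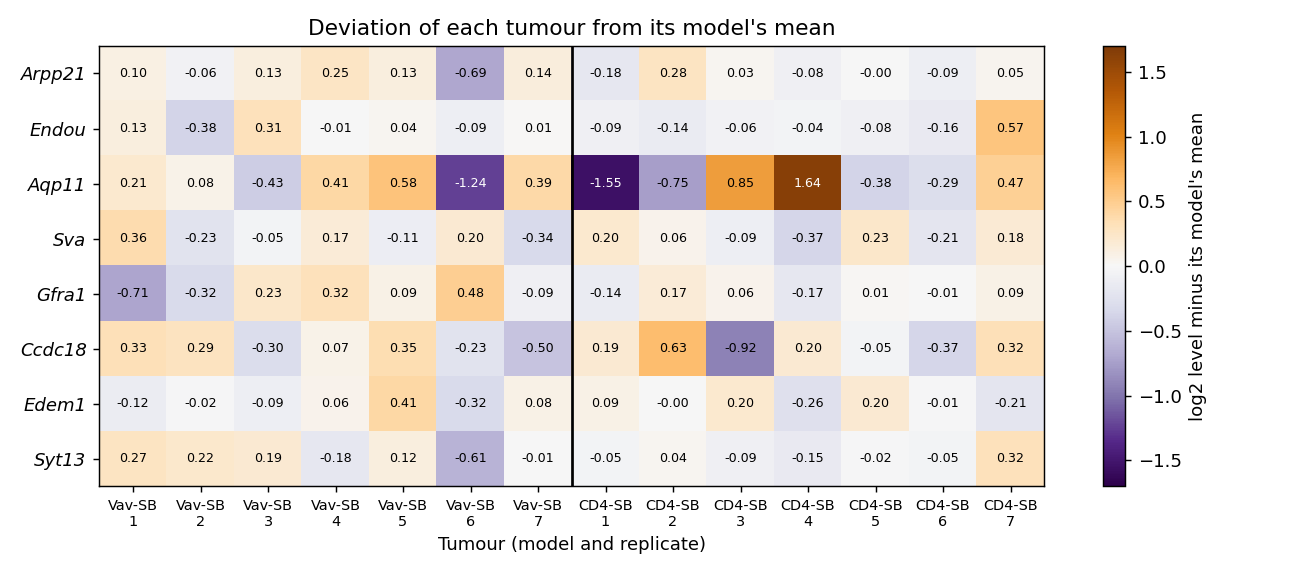
Deviation of each gene from the mean of its own model (colour and printed value, log2 scale), with genes down and tumours across, Vav-SB left of CD4-SB. Aqp11 in CD4-SB shows the widest spread, and Vav-SB replicate 6 is low for Arpp21, Aqp11, Edem1 and Syt13 and high for Gfra1.

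Other genes varied with these within the models. After each model was centred on its mean, likeness was measured by Pearson's r over the 14 tumours against 7894 genes above the median level, as a description with no test. Arpp21 was most like Mrpl21 (r = 0.824), Bex3 (0.819) and Ahdc1 (0.816), with 0.88 to 0.98 in Vav-SB and 0.59 to 0.66 in CD4-SB. Endou was most like As3mt (0.788), Trak2 (0.784) and Erlec1 (0.783), with 0.57 to 0.61 in Vav-SB and 0.89 to 0.91 in CD4-SB. For each of these 2 members 1 tumour stood apart from its model's mean, Vav-SB replicate 6 for Arpp21 (-0.69) and CD4-SB replicate 7 for Endou (0.57). The r without that tumour was not computed. Aqp11 was most like Tbx21, the gene of the T-cell transcription factor T-bet, with r = 0.898 (0.802 in Vav-SB and 0.967 in CD4-SB), followed by Ints13 (0.873) and Yipf4 (0.868). Aqp11, too, had tumours far from its model's mean, Vav-SB replicate 6 (-1.24) and CD4-SB replicates 1 (-1.55) and 4 (1.64). Its r without them was not computed. The 3 values given for each of Arpp21, Endou and Aqp11 are the highest among the 7894 genes searched. Rag1, a recombinase subunit of immature thymocytes, had r = 0.06 with Arpp21 and was at place 2541 in that order.

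Rag1 rose in Vav-SB (10.52 ± 0.51 against 6.09 ± 0.86 in CD4-SB). CD4-SB replicate 6 had Rag1 at 8.005 and Rag2 at 8.49, the highest of its model, and Arpp21 at 5.74. Of 12 double-positive thymocyte genes measured, 12 rose in Vav-SB by limma's test, with a median difference of 2.38, where 7.28% of all genes rose. The examples by smallest adjusted p were Dntt, which adds nucleotides to receptor joints (5.78), the E protein gene Tcf12 (1.61), Rag1 (4.43) and Themis, a T-cell receptor signalling gene (3.02). With the level of other cell type markers, described next, as a covariate 10 of the 12 calls were kept, and those of Rag2 (adjusted p = 0.0545) and Cd1d1 (0.0774) were lost. The median over probe sets and 1 tumour per title number each kept 11, without Cd1d1 (adjusted p = 0.140) and without Cd4 (0.0890). That list was chosen with earlier results known, and is not independent of the choice of the 8 genes.

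Markers of other cell types differed between the models and are given beside the results that follow. Their mean level, over 40 of 45 markers measured, had a lowest, median and highest value of 7.37, 7.47 and 8.08 in Vav-SB tumours, against 7.66, 8.37 and 8.86 in CD4-SB tumours. The difference of -0.72 passed a two-sided exact permutation test (p = 0.00524). Of the 40 markers 12 fell, 1 rose (Pecam1, of endothelium) and 27 did not pass; array values have no zero, so absence cannot be read. Of 9 T-lineage markers measured, 3 rose in Vav-SB (Cd3g, Lat and Cd2), 0 fell and 6 did not pass, with a median difference of 0.39, opposite in sign to that of the other cell types. Cd3g averaged 12.03 ± 0.14 in Vav-SB tumours, against 11.64 ± 0.15 in CD4-SB tumours (adjusted p = 0.00771). With the marker level as a covariate none of these 3 calls was kept, and 1 other T-lineage marker rose. The calls of Cd2 and Lat were also lost with the median over probe sets. That of Cd2 was lost, too, with 1 tumour per title number and without any of 11 tumours in turn (all but Vav-SB replicate 1 and CD4-SB replicates 3 and 4). In these bulk tumours fewer cells of a type and less RNA per cell cannot be told apart. No member's correlation with the marker level passed adjustment in either model (8 relations each, smallest adjusted exact permutation p = 0.517 in Vav-SB and 0.293 in CD4-SB). With the marker level as a covariate, the difference was 4.74 for Arpp21, 4.80 for Endou and 2.71 for Aqp11.

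Of the relatives and partners of the 8 genes 18.4% passed the test in either direction, against 14.5% of all genes. Of 87 measured genes in 7 lists, 4 rose and 12 fell in Vav-SB by limma's test over all genes, where 7.28% of all genes rose and 7.18% fell. The lists' median difference was -0.04, against 0.0043 over all genes. No list was made for Ccdc18.

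For Arpp21, of 11 relatives and cAMP or calmodulin partners 1 rose and 0 fell. R3hdm1, its paralog with an R3H domain, averaged 10.06 ± 0.16 in Vav-SB tumours, against 9.57 ± 0.23 in CD4-SB tumours, a difference of 0.49 ± 0.11 (SE, adjusted p = 0.00899). With the marker level as a covariate it was 0.13 (adjusted p = 0.507). R3hdm2, the other paralog, differed by 0.16 (adjusted p = 0.213).

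For Endou, of 11 endoribonucleases 1 rose and 2 fell. Drosha, which cuts microRNA precursors, differed by 0.57 (adjusted p = 0.0254), a call lost without any of 4 tumours in turn (Vav-SB replicates 1 and 2, CD4-SB replicates 5 and 6) and with the marker covariate (0.26, adjusted p = 0.508). Rnase4 and Ang, secreted ribonucleases, fell by 1.71 and 1.74 (adjusted p = 0.000736 and 0.00419). The marker covariate left differences of -1.04 for Rnase4 (adjusted p = 0.0853) and -0.90 for Ang (adjusted p = 0.259). The part of other cell types in these differences was not tested.

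For Aqp11, 0 of 11 other aquaporins passed the test, and their differences ran from -0.39 to 0.25 (smallest adjusted p = 0.0815). Some alternatives gained 1 call: Aqp6 fell with the marker covariate (-0.57, adjusted p = 0.0324). Aqp3 fell with the title number as a random block (-0.41, adjusted p = 0.0471), with array weights (-0.42, 0.0292) and without CD4-SB replicate 3 (-0.46, 0.0377). Mip rose without CD4-SB replicate 7 (0.25, adjusted p = 0.0402).

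For Sva, 1 of 10 seminal vesicle secretory genes rose. Svs6 averaged 3.68 ± 0.12 in Vav-SB tumours, against 3.42 ± 0.13 in CD4-SB tumours (difference 0.26, adjusted p = 0.0425), values near the low end of the table. The call was lost with the covariate, and also without any of 11 tumours in turn (all but Vav-SB replicate 3 and CD4-SB replicates 5 and 6). Pip, which is related to Sva, differed by 0.07 (adjusted p = 0.762).

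For Gfra1, 0 of 11 genes of the GDNF ligands and receptors rose and 2 fell. Ret, the kinase that signals with Gfra1, averaged 6.23 ± 0.10 in Vav-SB tumours, against 7.25 ± 0.85 in CD4-SB tumours, a difference of -1.03 ± 0.30 (SE, adjusted p = 0.0307). The Vav-SB tumours lay within 6.11 to 6.40, while the CD4-SB tumours ran from 6.20 to 8.52. The Ret call was lost without any of 7 tumours in turn (Vav-SB replicates 1, 2, 5, 6 and 7, CD4-SB replicates 5 and 6), at an adjusted p of up to 0.0639, and with the covariate (-1.08, adjusted p = 0.202). Sdc3, a proteoglycan that binds GDNF, fell by 0.45 (adjusted p = 0.0139). The Sdc3 call was lost with the covariate (-0.29, adjusted p = 0.315) and with 1 tumour per title number (-0.47, adjusted p = 0.0505). The paralog Gfra2 differed by -0.25 (adjusted p = 0.50).

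For Edem1, 0 of 19 genes of ER glycoprotein folding and disposal rose and 8 fell, with a median difference of -0.30. The smallest adjusted p belonged to Sel1l (-0.40, adjusted p = 0.0129), Derl2 (-0.37, 0.0205), Derl3 (-0.36, 0.0347), all of the disposal channel, and the chaperone Hsp90b1 (-0.30, 0.0383). Edem2, a paralog, differed by -0.23 (adjusted p = 0.135), and Edem3 was not analysed here. Leaving out 1 tumour gave 2 to 9 genes that fell, with 2 to 4 for any of 11 tumours (all but Vav-SB replicate 7 and CD4-SB replicates 2 and 7). The median over probe sets gave 2 that fell, and 1 tumour per title number gave 4, of which 3 were among the 8. That median ended the calls of Sel1l, Derl3 and Hsp90b1, and 1 tumour per title number those of Derl2 and Hsp90b1. Derl3 was also lost with bright probe sets and Hsp90b1 with array weights. The marker covariate left 0 calls, with a median difference of -0.16. With it the differences were -0.16 for Sel1l, -0.49 for Derl2, -0.30 for Derl3 and -0.30 for Hsp90b1. Their adjusted p-values by limma's test were 0.460, 0.0698, 0.303 and 0.235. The part of other cell types in the differences was not tested.

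For Syt13, 1 of 15 other synaptotagmins rose. Syt14 had levels of 6.68, 8.27 and 9.11 in Vav-SB tumours, against 5.09, 5.84 and 6.67 in CD4-SB tumours, so that the models did not overlap. Its difference was 2.32 ± 0.35 (SE, adjusted p = 0.000734). It kept its call under each alternative that tested it, the marker covariate included (2.50, adjusted p = 0.0226). The alternative with genes above the median level left it out.

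**Figure D4:**
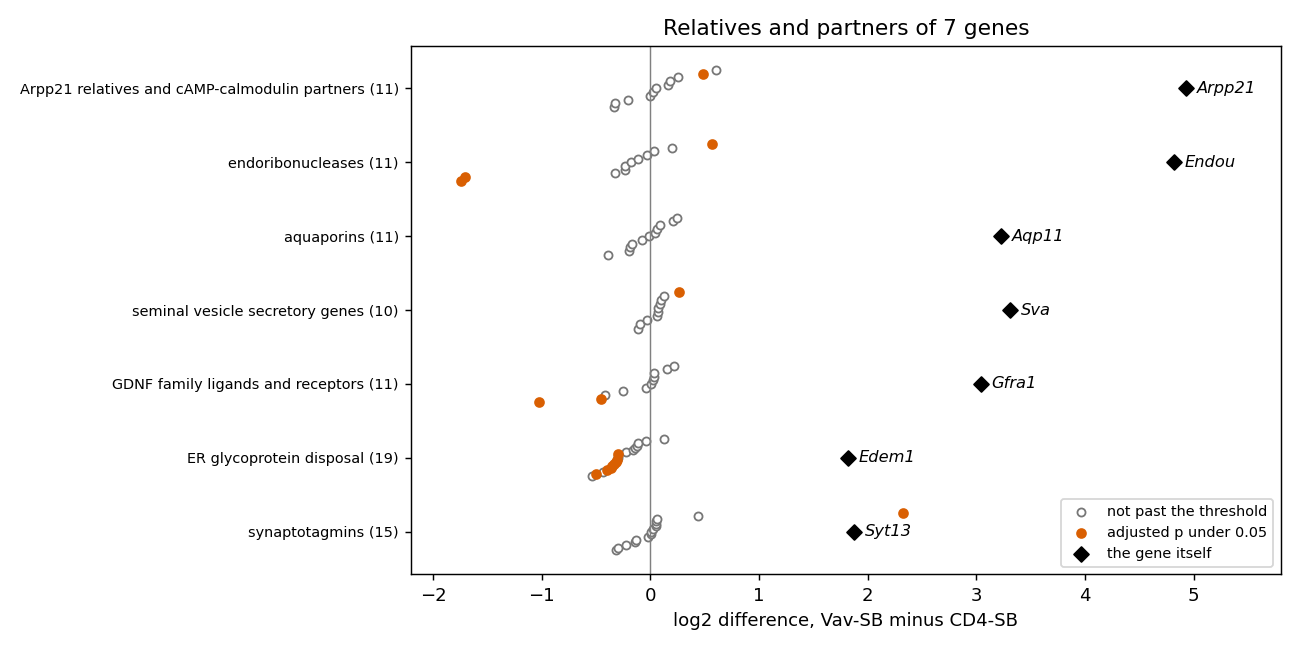
Vav-SB minus CD4-SB difference in mean log2 level (horizontal axis) for the genes of the 7 lists, 1 list per row with its number of measured genes. Open circles did not pass the threshold, filled circles had an adjusted p under 0.05, and diamonds are the genes themselves. Syt14 at 2.32 is the only listed gene beyond 1 on the positive side.

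The nearest measured genes on the chromosome, 3 on each side of each of the 8 genes by order in the RefSeq gene table, gave 48 neighbours. By limma's test 8 rose and 1 fell, where 7.28% of all genes rose and 7.18% fell. The neighbours of Sva and of Syt13 gave 0 calls among 6 each, and those of Sva include its relatives Sval1, Sval2 and Sval3.

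Among the neighbours of Ccdc18, Mtf2, the second measured gene on one side and a partner of the Polycomb complex that methylates histones, had levels of 11.02, 11.81 and 12.05 in Vav-SB tumours, against 9.70, 10.18 and 10.65 in CD4-SB tumours. It differed by 1.49 ± 0.19 (SE, adjusted p = 0.000184), and its models did not overlap. Tmed5, a vesicle transport gene and the first measured gene on that side, rose by 0.42 (adjusted p = 0.0176). Dr1, the first measured gene on the other side of Ccdc18, differed by less than its error (SE 0.09, adjusted p = 0.994). Near Endou, Hdac7, the third measured gene on one side and a histone deacetylase of thymocytes, had levels of 8.78, 8.97 and 9.27 in Vav-SB tumours, against 7.66, 7.78 and 8.16 in CD4-SB tumours, a difference of 1.12 ± 0.10 (SE) (adjusted p = 1.18e-05). Rapgef3, the first measured gene on the same side of Endou, encodes a cAMP-activated exchange factor and rose by 0.59 (adjusted p = 0.00131). Neither gene overlapped between the models, and Slc48a1, which lies between them, did not pass.

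Near Gfra1, Fam160b1, the third measured gene on one side, rose by 0.56 (adjusted p = 0.000177) and did not overlap between the models. Near Aqp11, Capn5, a calpain protease gene and the third on one side, rose by 0.65 (adjusted p = 0.0050) and Rsf1, a chromatin remodelling gene and the second on the other side, by 0.29 (adjusted p = 0.0462). Near Arpp21, Ubp1, the third on one side, rose by 0.35 (adjusted p = 0.0240). Near Edem1, Bhlhe40, a transcriptional repressor gene and the first measured gene on one side, fell by 1.54 (adjusted p = 0.00952). It averaged 6.54 ± 0.35 in Vav-SB tumours, against 8.07 ± 0.95 in CD4-SB tumours.

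The calls of Mtf2, Hdac7, Fam160b1 and Capn5 held under each alternative run. With the marker level as a covariate the calls of Ubp1, Rapgef3, Rsf1, Tmed5 and Bhlhe40 ended. Their differences were then 0.31, 0.49, 0.29, 0.17 and -0.58 in that order. By limma's test their adjusted p-values were 0.247, 0.0710, 0.261, 0.508 and 0.446. The standard errors of Ubp1, Rapgef3 and Rsf1 were 0.14 each with the covariate and 0.10, 0.10 and 0.09 without it. The Tmed5 call was also lost with the median over probe sets and with bright probe sets, and the Rsf1 call with that median and with 1 tumour per title number. The Rsf1 call was lost, too, without any of 9 tumours in turn (Vav-SB replicates 1, 2, 4, 5 and 7, CD4-SB replicates 1, 2, 5 and 7), and that of Ubp1 without CD4-SB replicate 6 or Vav-SB replicate 5.

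**Figure D5:**
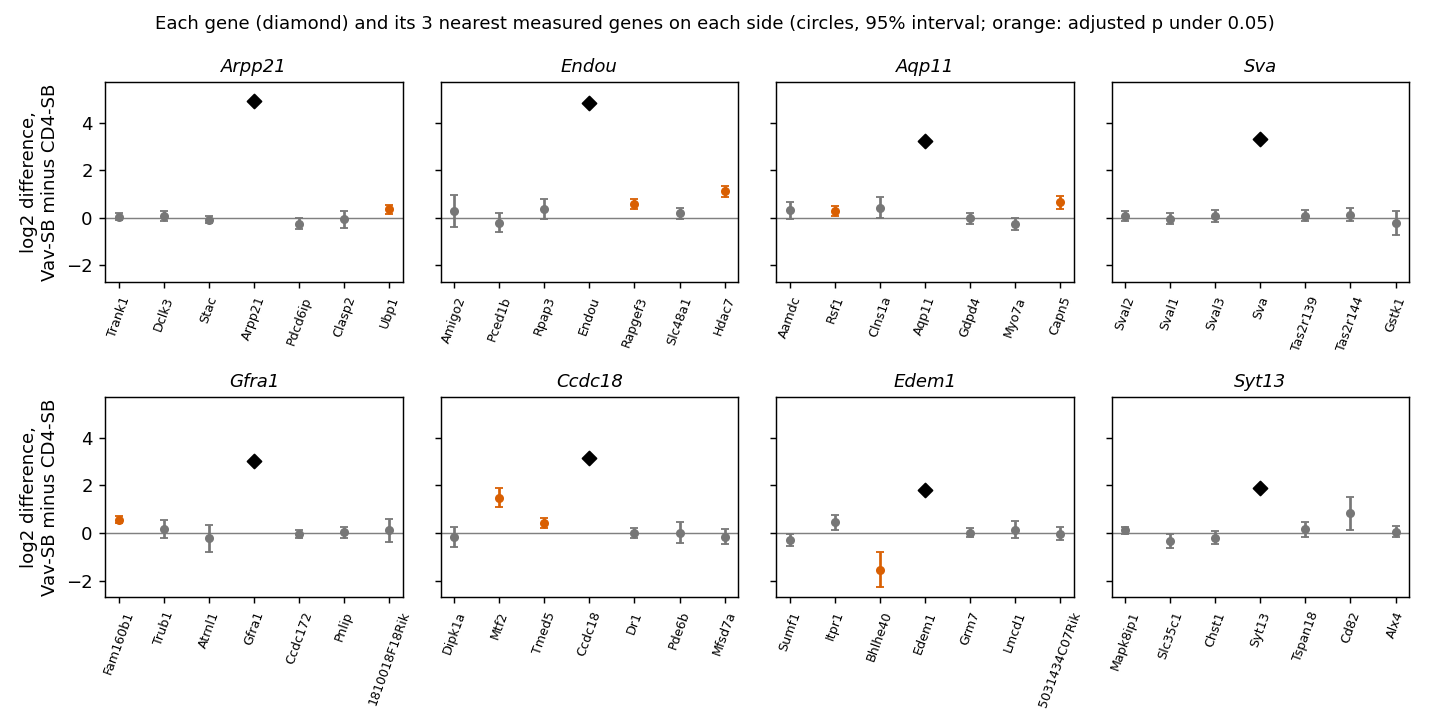
Vav-SB minus CD4-SB difference in mean log2 level (vertical axis) of the 3 nearest measured genes on each side of each of the 8 genes, in chromosome order (horizontal axis, not distance), with 95% intervals, with the gene itself as a diamond. Mtf2 at 1.49 and Hdac7 at 1.12 are the highest neighbours, and Bhlhe40 at -1.54 is the lowest.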

How the data were processed

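Exon arrays measured RNA of 7 Vav-SB and 7 CD4-SB tumours; the strain label gave the groups, and replicates were numbered in accession order. Per the labels' protocols, total RNA of frozen tumours was amplified into cDNA, fragmented and labelled with biotin. The authors deposited log2 values per probe set; the submitters' processing notes name RMA and Partek, without versions. The log base is read from the range, 2.03 to 14.03. Column medians of 7.46 to 7.50 hide any change in total RNA, and the number of arrays limits precision. Of 194293 probe sets, 179496 have 1 symbol in the platform annotation, 1328 several and 13469 none; symbols were updated through a RefSeq table of GRCm38.p6 (13727 current, 2014 replaced, 5 unmatched). Probe sets of a gene were averaged, with no filter on dim genes.

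Genes other than the 8 were tested with limma 3.58.1 in R 4.3.3 (lmFit and eBayes) over 15803 genes, with Benjamini-Hochberg adjustment and a threshold of 0.05. The 8 genes and all lists were chosen with earlier results of these data known. Named are the 8 genes, up to 4 called genes per family list and in the double-positive list, every called neighbour, the nearest paralogs, the 3 genes most like each of Arpp21, Endou and Aqp11, and Rag1; Rag2, Cd1d1, Cd4, Cd3g, Lat, Cd2, Pecam1, Aqp3, Aqp6, Mip, Sval1, Sval2, Sval3, Slc48a1 and Dr1 were named after their values were seen. Correlations used exact permutation tests (scipy 1.17.1). On simulated data, the gene test with 200 of 15803 genes changed recovered 40% of those changed by 0.5 on the log2 scale, 80% at 1 and 100% at 2 and 4. Alternatives were the median over probe sets, bright probe sets, quantile normalization, 1 tumour per title number, that number as a random block, genes above the median level, a trended variance prior, array weights, the marker level as covariate, and each tumour left out.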

Additional observations from a re-analysis of the deposited data

Results flagged for a closer look

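In 90 groups of 7 tumours, 1 per gene or marker level and model, 8 had a tumour whose gap to its nearest neighbour exceeded Dixon's critical value for 7 samples. Chance gives about 1 in 20 such groups. Among the 8 Vav-SB markers, Arpp21 was lowest in Vav-SB replicate 6 at 10.07, with the next tumour at 10.71. Endou was highest in CD4-SB replicate 7 at 7.20, with the next at 6.59, and Syt13 was highest in the same tumour at 7.56, with the next at 7.28. Of the other genes, Rag1 was at 8.005 in CD4-SB replicate 6 (next 5.91) and Erlec1 at 10.07 in CD4-SB replicate 7 (next 9.64). Gfra2 was at 6.79 in Vav-SB replicate 6 (next 6.06), Svs6 at 3.94 in Vav-SB replicate 1 (next 3.71), and Cd3g was lowest in Vav-SB replicate 3 at 11.72 (next 12.04).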

How the results depend on the processing

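No difference of the 8 genes turned direction under any alternative run, nor did that of any other called gene checked for direction. Rag2, Cd1d1, Cd4, Pecam1 and Ints13 were not checked in this way. Leaving out 1 tumour at a time gave differences of 4.89 to 5.05 for Arpp21, 4.77 to 4.91 for Endou, 2.97 to 3.50 for Aqp11 and 3.25 to 3.36 for Sva. The ranges were 2.96 to 3.16 for Gfra1, 2.99 to 3.25 for Ccdc18, 1.75 to 1.87 for Edem1 and 1.83 to 1.98 for Syt13, with 100 to 102 probe sets without overlap. Bright probe sets alone gave 4.62 for Arpp21, 2.70 for Sva and 3.50 for Gfra1, and the median over probe sets 3.55 for Gfra1 and 2.22 for Edem1. The marker covariate gave 2.65 for Ccdc18, gave 566 genes called in place of 2284 (372 higher and 194 lower in Vav-SB) and kept 4 of the 9 neighbour calls (4 calls in all) and 1 of the 16 family calls (2 calls in all, Syt14 and the gained Aqp6). Family genes called were 9 with the median over probe sets, 10 with 1 tumour per title number and 7 to 18 with 1 tumour left out. They were 10 or fewer without Vav-SB replicates 1, 2, 4, 5 or 6 or CD4-SB replicates 1 or 6. Neighbours called were 7 to 10, genes called 1628 to 2518 and double-positive genes 12 with 1 tumour left out (10 with the covariate, 11 with the median over probe sets and 11 with 1 tumour per title number), and the marker level differed by -0.83 to -0.63. For the genes other than the 8 that were checked for direction, 664 alternative values had the same call status as the main fit and 155 lost the call. These genes include some called genes of the ER list that are not named here. The 664 include values of R3hdm2, Edem2, Gfra2 and Pip, which had no call to keep. The cause of the losses was not tested. No paired analysis was possible because no title number occurred in both models, and replicate numbers only follow accession order. Close to the array's background, folds understate a change.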
